A study of Mus musculus with 6 samples.

Results

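The 10 genes described here encode proteins of mRNA decapping and of processing bodies (P-bodies), namely Dcp2, Dcp1a, Dcp1b, Edc3, Edc4, Xrn1, Lsm14a, Zc3hav1, Fxr1 and Fmr1. They were taken by gene symbol, and each had a row among the 56748 genes listed in the deposited table. Ribosome profiling reads the stretches of mRNA that ribosomes protect from nuclease, so a gene's reads count its footprints. Footprints were compared in Lin-c-Kit+ mouse cells, called hematopoietic stem cells in the labels, from 3 Mov10 knockout (Mov10 KO) and 3 wild-type (WT) libraries. Cells of both genotypes were collected 12 days after irradiation at 4.5 Gy, so that no unirradiated sample is part of the comparison. The labels give neither the age of the mice nor the Mov10 allele, nor whether cells were pooled or came from separate animals. The p-values therefore measure spread between these libraries, which may be technical. In bulk samples such as these, fewer cells of a type and fewer footprints per cell cannot be told apart, and mRNA levels were not analysed here.

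Most cytoplasmic mRNA decay starts with loss of the poly(A) tail, after which Dcp2 removes the cap and Xrn1 digests the body of the RNA from its 5′ end. Dcp1 proteins activate Dcp2, and Edc4 is a scaffold that holds Dcp1 and Dcp2 together in animal cells. Many of these proteins gather in P-bodies, cytoplasmic granules that also hold repressed mRNA. Mov10, an RNA helicase known to act with Argonaute and Upf1 in RNA silencing and decay, is found in the same granules.

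Footprints fell on both Dcp1 paralogs in the knockout and rose on Zc3hav1, Fxr1 and Xrn1, while the other 5 genes did not pass the test. Dcp1a was 4.89-fold lower and Dcp1b 3.55-fold lower in the knockout, and Zc3hav1 was 2.42-fold higher, Xrn1 1.49-fold and Fxr1 1.42-fold. Calls are from limma on log2(normalized reads + 1) over 17114 tested genes, at a Benjamini-Hochberg adjusted p under 0.05. The members called were 3 of 10 higher and 2 of 10 lower, where 10.3% of all tested genes were called higher and 10.9% lower. With library totals in place of the authors' scaling, 1 member was called higher and 3 lower. The knockout libraries lay entirely above the WT libraries in 4 members and entirely below them in 3, against 16.9% and 22.9% of all tested genes. The median log2 fold change of the 10 genes was 0.22, and that of all tested genes was -0.17.

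The knockout libraries held 1118345 to 1352517 reads and the WT libraries 2260348 to 2499634, so depth and genotype went together. Differences between replicates exceeded counting noise by more in the knockout, with a chi-square per gene of 6.35 to 7.24 between knockout libraries and 1.57 to 2.34 between WT libraries, where counting noise alone gives about 1. Mov10 itself had 51.0, 89.0 and 46.3 normalized reads in the knockout libraries, against 110.4, 106.2 and 104.3 in the WT libraries, and did not pass (adjusted p = 0.0598). It passed in 4 of 19 alternatives, among them the fit without knockout replicate 2 (adjusted p = 0.00692). Each value is a sum over the whole gene, so where along Mov10 the knockout reads lie is not known, and the check is weak. Of 9 progenitor markers 1 was called higher, with summed levels of 3670 to 4179 normalized reads in the knockout and 3480 to 3547 in WT. This was Myb, at 2481 ± 230 in the knockout and 1935 ± 30.4 in WT (SD, n = 3 each). Its rise exceeded that of the sum. Kit, which was used in the sort, had a log2 fold change of 0.03 (adjusted p = 0.787). B cell markers were called higher in 5 of 9 genes, with sums of 721 to 856 in the knockout and 286 to 301 in WT. Of 8 erythroid markers 3 were higher and 1 lower, with sums of 1582 to 1633 in the knockout and 535 to 597 in WT. Mature neutrophil markers were higher in 2 of 6 genes and lower in 2, with sums of 5906 to 6384 in the knockout and 7538 to 8206 in WT. S100a8 had 371 ± 57.4 in the knockout and 2246 ± 101 in WT (SD, n = 3 each) and fell by more than the sum. S100a9 (2652 ± 174 against 2250 ± 73.2) and Retnlg (594 ± 126 against 346 ± 23.6) were the 2 called higher. Of 5 monocyte markers 1 was lower, with sums of 726 to 763 in the knockout and 891 to 1001 in WT. This was Ly6c2, at 21.4 ± 21.2 in the knockout and 324 ± 40.1 in WT (SD, n = 3 each). Its fall exceeded that of the sum. Csf1r and Adgre1 lay above WT in every knockout library and Cx3cr1 below, and none of them passed. Of 6 stromal and endothelial markers tested 2 were higher and 1 lower, with sums of 358 to 485 in the knockout and 255 to 323 in WT. None of 6 T and NK cell markers passed in limma, with sums of 63.7 to 92.5 in the knockout and 69.3 to 96.7 in WT. No gene of these marker lists was at 0 in all libraries of a genotype. Over all tested genes 10.3% were called higher and 10.9% lower. The part of these cells in the differences on decapping and P-body genes was not tested.

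**Figure D1:**
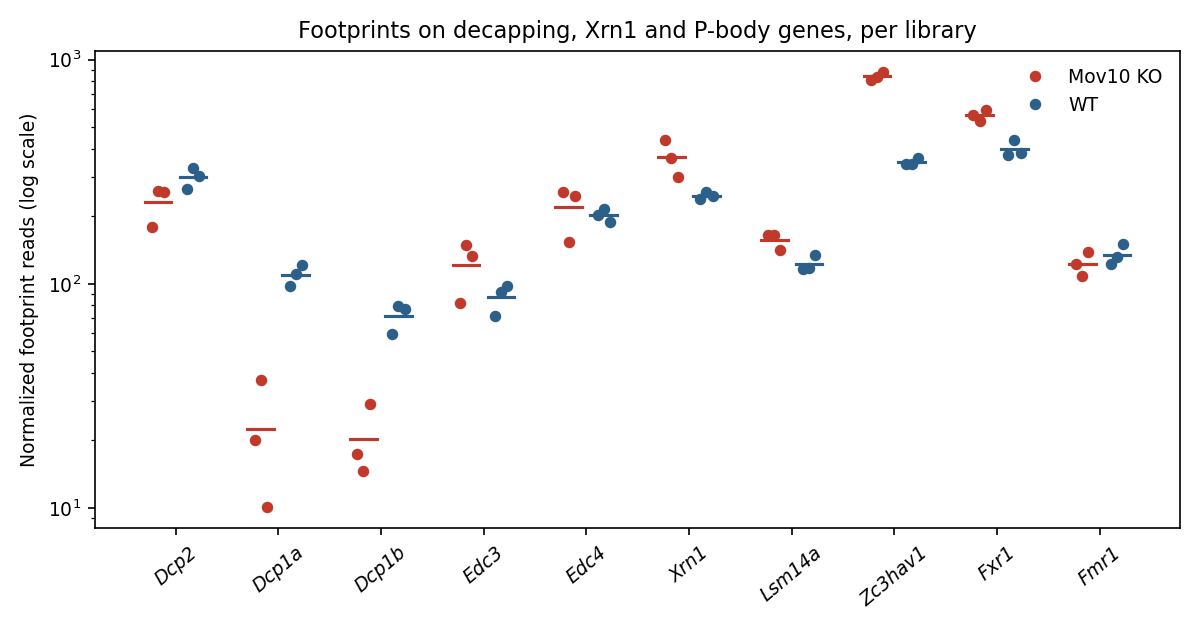
Normalized footprint reads (log axis) of the 10 genes in each library, with Mov10 KO points (red) left of WT points (blue) and bars at the mean of 3 libraries. Knockout points of Dcp1a, Dcp1b and Dcp2 lie below all WT points, and those of Zc3hav1, Fxr1, Xrn1 and Lsm14a lie above them.

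Dcp1a and Dcp1b encode the activators of the decapping enzyme. Dcp1a (chromosome 14, 30201492 to 30249020, plus strand, GRCm39) had 20.1, 37.2 and 10.1 normalized reads in the knockout libraries, against 98.0, 110.5 and 121.3 in the WT libraries. Dcp1b (chromosome 6, 119152214 to 119198577, plus strand, GRCm39) had 17.4, 14.6 and 28.9 in the knockout libraries, against 59.7, 79.8 and 77.0 in the WT libraries. For each gene the highest knockout library lay well under the lowest WT library. The log2 fold change of Dcp1a was -2.41 (SE 0.43, adjusted p = 0.00645), and that of Dcp1b was -1.83 (SE 0.35, adjusted p = 0.00857). These levels rest on 7 to 23 reads per knockout library and 151 to 180 per WT library for Dcp1a, and on 9 to 20 and 92 to 130 for Dcp1b. The knockout spread was wide at this depth, with an SD of 60.9% of the mean for Dcp1a in the knockout and 10.6% in WT.

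Of all tested genes, 639 (3.73%) had a log2 fold change at or below that of Dcp1a and 1555 (9.09%) at or below that of Dcp1b. Among 3836 genes with a mean of 30 to 100 normalized reads, the range in which both lie, 11.7% were called lower, 74 were at or below Dcp1a and 170 at or below Dcp1b. Without WT replicate 2 the adjusted p was 0.0523 for Dcp1a and 0.0714 for Dcp1b, and without WT replicate 3 it was 0.0565 and 0.0696, so that neither passed then. Each gene overlaps a calcium channel gene on the opposite strand, and whether counting used the strand is not given in the sources used here. Cacna1d, which overlaps Dcp1a by 11921 bases, had 13.4, 21.0 and 39.1 normalized reads in the knockout and 10.4, 14.7 and 15.0 in WT. Cacna1c, which overlaps Dcp1b by 21638 bases, had 5.36, 22.6 and 8.68 in the knockout and 14.9, 16.6 and 19.1 in WT. Neither channel gene passed the test (adjusted p = 0.372 and 0.494), and both had fewer WT reads than the decapping gene they overlap. In the knockout the ranges of each pair overlapped, and which gene was higher varied between libraries. The knockout means were 24.5 for Cacna1d and 22.5 for Dcp1a, and 12.2 for Cacna1c and 20.3 for Dcp1b. What antisense reads add to the Dcp1 values was not tested.

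The promoters of the Dcp1 paralogs are shown because these genes were the members that were called lower. RefSeq (GRCm38.p6) gives a start site for each on the plus strand, and the 250 bases before it are printed 5′ to 3′, at chr14:30479315-30479564 for Dcp1a and chr6:119175003-119175252 for Dcp1b. Capitals mark matches to CCGGAAG, a core sequence of ETS-family sites, searched on both strands and chosen after the sequences were seen.
Dcp1a: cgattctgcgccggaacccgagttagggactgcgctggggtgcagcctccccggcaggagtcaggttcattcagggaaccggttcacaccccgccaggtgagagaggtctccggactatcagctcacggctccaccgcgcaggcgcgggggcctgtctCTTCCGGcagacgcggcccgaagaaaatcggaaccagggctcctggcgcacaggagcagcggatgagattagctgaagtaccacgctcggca
Dcp1b: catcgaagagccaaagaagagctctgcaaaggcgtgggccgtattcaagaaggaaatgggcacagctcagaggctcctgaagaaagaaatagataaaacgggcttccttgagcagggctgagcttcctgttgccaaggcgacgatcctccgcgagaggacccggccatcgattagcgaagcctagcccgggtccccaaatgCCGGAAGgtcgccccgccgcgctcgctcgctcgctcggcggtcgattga
The match lies at -92 to -86 from the start site in Dcp1a, on the minus strand, and at -49 to -43 in Dcp1b, on the plus strand. The letters occur in 2 of 9 members with a promoter window of this length and in 6.91% of 32851 such windows of all genes. The 2 are Dcp1a and Dcp1b, whose sequences were seen before the letters were chosen. The comparison is therefore no test, and it sets genes beside windows. A further motif, the interferon-stimulated response element core, was searched on both strands and occurs in 0 of these 9 members and in 2.98% of all windows. GC content was 65.2% in the Dcp1a window and 59.6% in the Dcp1b window. A match of letters is a description and shows no binding.

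Dcp2, the catalytic subunit that cleaves the cap, had 179.7, 258.8 and 257.6 normalized reads in the knockout, against 264.9, 329.6 and 303.9 in WT. Every knockout library was below every WT library, but by a small margin, and the difference did not pass (log2 fold change -0.38, 95% interval -0.77 to 0.01, adjusted p = 0.156). With library totals it passed (adjusted p = 0.0349). Footprints on Dcp1a and Dcp1b together were 0.187 ± 0.0308 of those on Dcp2 in the knockout and 0.608 ± 0.0392 in WT (SD, n = 3 each). The highest knockout ratio was 0.209 and the lowest WT ratio 0.577, and a size factor for a whole library cancels in this ratio, which cyclic loess does not leave unchanged. It was formed after the values were seen and was not tested. The ratio of Dcp1a to Dcp1b was 1.15, 2.56 and 0.350 in the knockout and 1.64, 1.38 and 1.58 in WT (exact two-sided permutation p = 0.7, where 3 against 3 libraries allow no p below 0.1). The paralogs thus overlapped between genotypes in their ratio to each other, and its direction turned without knockout replicate 3, where the log2 difference was 0.17, against -0.60 with all libraries.

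Edc3 and Edc4 encode enhancers of decapping, Edc3 a P-body assembly factor and Edc4 the scaffold named above. Edc3 had 81.8, 148.8 and 133.1 normalized reads in the knockout, against 72.1, 92.1 and 97.4 in WT, and the groups overlapped in knockout replicate 1. Its log2 fold change of 0.44 did not pass (95% interval -0.15 to 1.03, adjusted p = 0.273), and without that library it was 0.70 and passed (adjusted p = 0.0378). Edc3 shares 1876 bases with Clk3 on the opposite strand, which had 162 ± 31.0 normalized reads in the knockout and 177 ± 17.4 in WT (SD, n = 3 each). Edc4 had 257.5, 153.7 and 247.4 in the knockout, against 201.9, 216.6 and 188.1 in WT, so the WT libraries lay inside the range of the knockout libraries. Its log2 fold change was 0.08 (95% interval -0.38 to 0.55, adjusted p = 0.806).

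**Figure D2:**
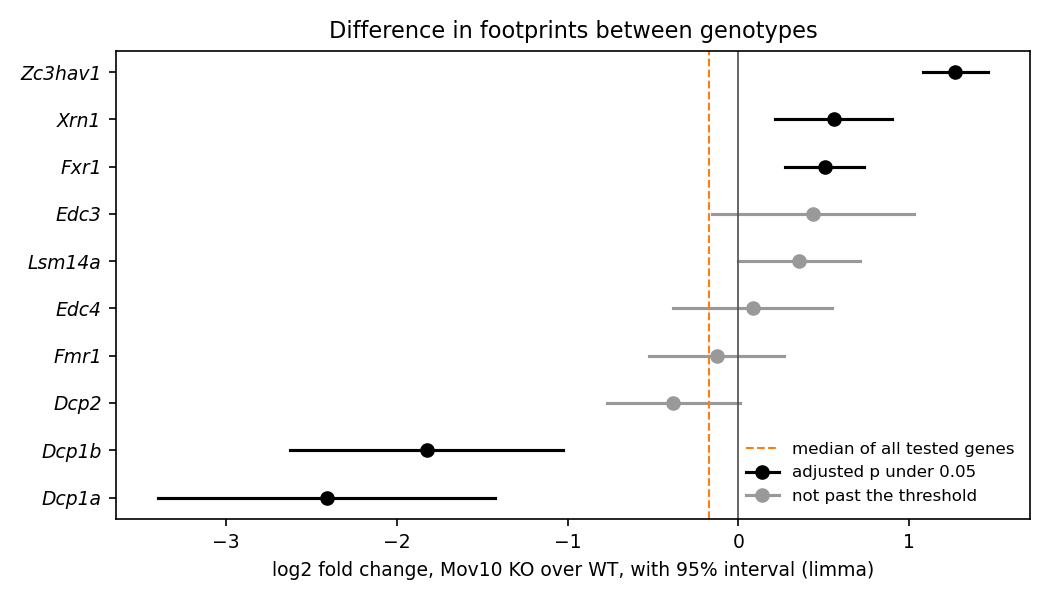
Log2 fold change of each gene, Mov10 KO over WT, with its 95% interval from limma; black marks genes past the threshold and the dashed line is the median of all tested genes (-0.17). Dcp1a (-2.41) and Dcp1b (-1.83) stand at the low end and Zc3hav1 (1.27) at the high end, and the intervals of Dcp2, Edc3, Edc4, Lsm14a and Fmr1 include 0.

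Xrn1, the exonuclease that degrades decapped RNA, lies on chromosome 9 (95836813 to 95939856, plus strand, GRCm39). It had 439.9, 363.9 and 299.5 normalized reads in the knockout, against 238.3, 255.9 and 246.0 in WT. All knockout libraries were higher than all WT libraries, and they spread over a wider range. The log2 fold change was 0.56 (SE 0.15, adjusted p = 0.0319). Xrn1 was called in 12 of 19 alternatives; the adjusted p was 0.0573 without knockout replicate 2, and 0.125, 0.105 and 0.125 without WT replicates 1, 2 and 3. It was 0.152 with library totals, 0.108 after cyclic loess and 0.158 without a variance trend. Relative to Dcp2 in the same library, Xrn1 stood at 2.45, 1.41 and 1.16 in the knockout and 0.900, 0.777 and 0.809 in WT, again a description made after the values were seen.

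**Figure D3:**
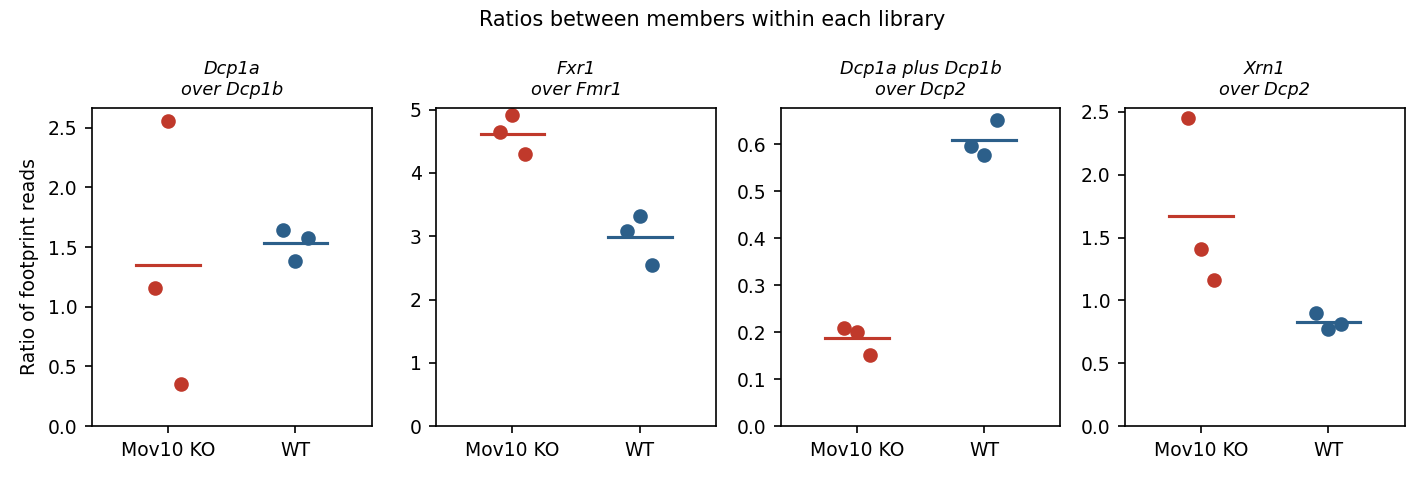
Ratios of footprint reads between members in each library, Mov10 KO (red) left of WT (blue), with bars at the mean of 3 libraries; each axis starts at 0. Dcp1a plus Dcp1b over Dcp2 was 0.152 to 0.209 in the knockout and 0.577 to 0.652 in WT, while Dcp1a over Dcp1b overlapped between the genotypes.

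Zc3hav1 encodes ZAP, a zinc finger antiviral protein that binds CpG-rich RNA and directs it to decay. On chromosome 6 (38282221 to 38331538, minus strand, GRCm39), it had 815.4, 839.5 and 876.9 normalized reads in the knockout, against 342.1, 343.1 and 362.5 in WT. The knockout libraries were well above the WT libraries, and each group was narrow. The log2 fold change was 1.27 (SE 0.08, adjusted p = 3.57e-05), and 1449 of the tested genes (8.47%) had a value as high. The call held in 19 of 19 alternatives, with a log2 fold change between 0.97 and 1.47 and an adjusted p of at most 0.0100. Recovered reads were 519 to 608 per knockout library and 527 to 559 per WT library, so unscaled reads overlapped between genotypes while library totals differed. With library totals as the scaling, the log2 fold change was 1.04.

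Lsm14a encodes an RNA-binding protein that works with the helicase Ddx6 in repression and P-body assembly. It had 164.9, 165.0 and 141.8 normalized reads in the knockout, against 116.2, 117.8 and 134.2 in WT. Each knockout library exceeded each WT library, and the difference did not pass (log2 fold change 0.35, 95% interval -0.0013 to 0.71, adjusted p = 0.148). With upper-quartile scaling it passed (adjusted p = 0.0437).

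Fxr1 and Fmr1 are paralogs that encode RNA-binding proteins associated with translating ribosomes, Fmr1 the protein lost in fragile X syndrome, which is known to bind Mov10. Fxr1 (chromosome 3, 34074092 to 34124471, plus strand, GRCm39) had 567.3, 532.2 and 596.2 normalized reads in the knockout, against 377.2, 436.3 and 382.3 in WT, with no overlap. The log2 fold change of Fxr1 was 0.50 (SE 0.10, adjusted p = 0.0102). Leaving out WT replicate 1 or 3 gave an adjusted p of 0.0569 or 0.0695 for Fxr1, and it was 0.0836 with library totals, 0.154 after cyclic loess and 0.136 without a variance trend. Fmr1 had 122.0, 108.4 and 138.9 in the knockout, against 122.1, 131.3 and 149.9 in WT, and the groups overlapped. Its log2 fold change was -0.13 (95% interval -0.52 to 0.27, adjusted p = 0.641). The ratio of Fxr1 to Fmr1 reads was 4.65, 4.91 and 4.29 in the knockout and 3.09, 3.32 and 2.55 in WT, without overlap (exact two-sided permutation p = 0.1, the smallest possible).

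Per kilobase of the deposited gene length, whose coding and untranslated parts are not stated, Zc3hav1 had the highest level in the knockout at 129 ± 4.76 normalized reads per kb (SD, n = 3). Fxr1 followed at 86.2 ± 4.89 and Edc4 at 39.9 ± 10.4, and the libraries of these 3 genes did not overlap. Dcp2 came next and overlapped Edc4, which was below Dcp2 in knockout replicate 2. Dcp2, Lsm14a, Edc3 and Xrn1 lay between 26.7 and 19.8, each overlapping its neighbour. Fmr1 had 13.7 ± 1.71 and overlapped Edc3, which had 14.1 in knockout replicate 1. Dcp1a came last at 2.73 ± 1.66, Dcp1b overlapped it, and both lay under every Fmr1 value. In WT the order began with Fxr1 at 60.8 ± 5.00 per kb and Zc3hav1 at 53.6 ± 1.76, so that these genes changed places. Edc4 and Dcp2 overlapped at 36.8 ± 2.60 and 34.4 ± 3.74, and Lsm14a stood apart at 20.0 ± 1.63. Edc3, Fmr1, Dcp1a and Xrn1 lay between 15.0 and 13.3 per kb, each overlapping the next, and Dcp1b was last at 11.4 ± 1.71. In per-kb level, Dcp1a exceeded 28.6% of tested protein-coding genes in the knockout and 57.4% in WT. All 10 genes together took 0.147% ± 0.00255 of reads in the knockout and 0.131% ± 0.00872 in WT (SD, n = 3 each).

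Further proteins of decapping and P-bodies were examined as a list of 15 genes. In the knockout 1 was called higher and 3 lower, where 10.3% of all tested genes were called higher and 10.9% lower. The median log2 fold change of the list was -0.38, against -0.17 for all tested genes. Eif4enif1, which encodes the eIF4E transporter 4E-T of P-bodies, had 440 ± 92.4 normalized reads in the knockout and 243 ± 18.9 in WT (SD, n = 3 each), 1.81-fold higher (adjusted p = 0.00793). Ddx6, the helicase that represses mRNA and recruits the decapping factors, had 465 ± 40.8 in the knockout and 603 ± 9.09 in WT, 1.30-fold lower (adjusted p = 0.0249). Lsm3, a subunit of the Lsm rings that bind RNA ends, had 44.5 ± 14.9 in the knockout and 87.4 ± 10.5 in WT (adjusted p = 0.0485). Lsm5 of the same rings had no read in any knockout library and 6, 8 and 14 reads in the WT libraries, at least 1.39-fold lower against a floor of 3 reads per library (adjusted p = 0.0138). The other ring subunits of the list did not pass. Lsm1 had 37.5, 21.0 and 21.7 normalized reads in the knockout and 10.4, 20.3 and 15.7 in WT, above WT in every knockout library (adjusted p = 0.295). Lsm2 and Lsm7 lay below WT in every knockout library (adjusted p = 0.0845 and 0.12). Lsm4 and Lsm6 overlapped between genotypes (adjusted p = 0.466 and 0.663). Patl1, a bridge between Ddx6 and the Lsm ring, had 33.5, 82.5 and 39.1 in the knockout and 73.4, 69.3 and 69.5 in WT, and the groups overlapped. Dcps, which clears the cap left by decay from the other end, had a log2 fold change of -0.04 (adjusted p = 0.937). Without WT replicates 1, 2 and 3 in turn, 1, 0 and 1 genes of this list were called; Ddx6 then had an adjusted p of 0.0897 to 0.112, Lsm3 of 0.130 to 0.195, Eif4enif1 of 0.0538 and 0.0504 without replicates 1 and 2, and Lsm5 of 0.0583 and 0.0623 without replicates 2 and 3. Lsm5 also did not pass in DESeq2 (adjusted p = 0.0765), and with upper-quartile scaling Ddx6 and Lsm3 did not pass (adjusted p = 0.219 and 0.109). Without a variance trend Ddx6 (adjusted p = 0.232), Lsm3 (0.0965) and Eif4enif1 (0.0665) did not pass. Lsm3 was lost in 9 of 19 alternatives, also after cyclic loess (adjusted p = 0.0894), after thinning to equal depth (0.0872), with a pseudocount of 0.1 (0.0565) and with no filter (0.0736).

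**Figure D4:**
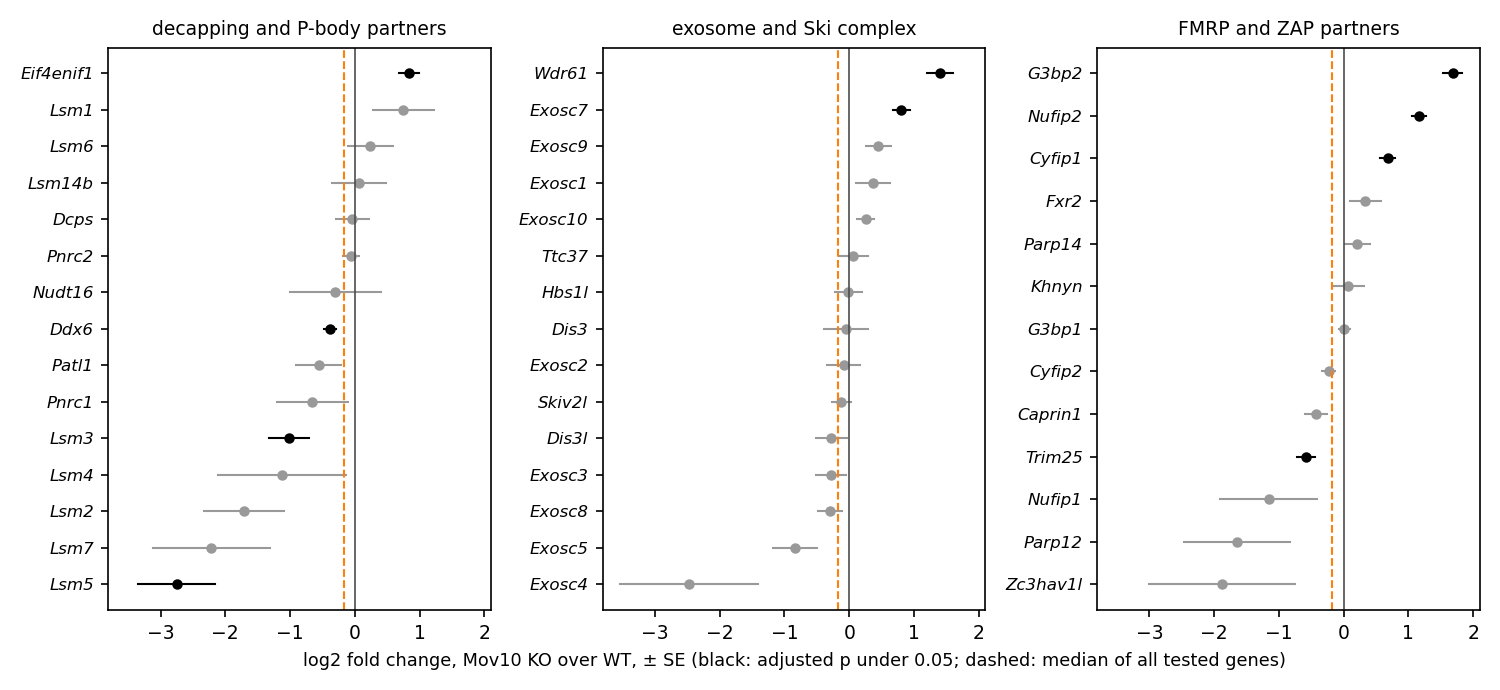
Log2 fold change, Mov10 KO over WT, with its SE for every tested gene of the 3 partner lists; black marks genes past the threshold and dashed lines the median of all tested genes (-0.17). The called genes were 1 higher and 3 lower among decapping partners, 2 higher in the exosome and Ski list, and 3 higher and 1 lower among partners of FMRP and ZAP.

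The exosome digests RNA from its 3′ end with help of the Ski complex, the route that runs beside decapping. Of 15 tested genes, 2 were called higher and 0 lower in the knockout, with a median log2 fold change of -0.05. Of all tested genes 10.3% were called higher and 10.9% lower, with a median of -0.17. Wdr61, a subunit of the Ski complex, had 207 ± 39.8 normalized reads in the knockout and 77.6 ± 12.7 in WT, 2.67-fold higher (adjusted p = 0.00236). Exosc7, a subunit of the exosome core, had 337 ± 45.8 in the knockout and 191 ± 4.85 in WT, 1.76-fold higher (adjusted p = 0.0042). Exosc5, another core subunit, had 116.7, 74.4 and 42.0 in the knockout and 138.3, 128.3 and 120.6 in WT and did not pass (adjusted p = 0.114), though it did without knockout replicate 1 (adjusted p = 0.0203), with library totals (0.0496) and with a weight per genotype (0.0413). Without knockout replicate 1, 2 genes of the list were higher and 2 lower. Exosc9 had 125.4 ± 10.4 in the knockout and 92.1 ± 15.8 in WT (adjusted p = 0.139), and it passed with upper-quartile scaling (adjusted p = 0.0472).

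Among 13 genes whose products work with FMRP or ZAP, 3 were called higher and 1 lower, with a median of 0.01. The shares over all tested genes were 10.3% higher and 10.9% lower, with a median of -0.17. G3bp2, a stress granule protein, had 374 ± 54.0 normalized reads in the knockout and 115 ± 7.11 in WT, 3.26-fold higher (adjusted p = 0.000142). Its paralog G3bp1 had 536 ± 34.9 in the knockout and 530 ± 5.75 in WT (adjusted p = 0.933). Nufip2, an FMRP-interacting protein, had 389.6 ± 12.4 in the knockout and 173 ± 2.71 in WT, 2.25-fold higher (adjusted p = 0.00021). Cyfip1, which joins FMRP to the cap-binding protein, had 460.2 ± 53.2 in the knockout and 287 ± 22.9 in WT, 1.61-fold higher (adjusted p = 0.00656, and 0.0776 without a variance trend). Its paralog Cyfip2 had 481 ± 52.2 in the knockout and 562 ± 8.06 in WT. Cyfip2 lay below WT in every knockout library and did not pass (adjusted p = 0.149). Trim25, a ubiquitin ligase needed by ZAP, had 148 ± 15.0 in the knockout and 221 ± 14.2 in WT, 1.49-fold lower (adjusted p = 0.0224). Trim25 was lost when any WT library was omitted (adjusted p = 0.107, 0.0908 and 0.0878 for WT replicates 1, 2 and 3). It was also lost with upper-quartile scaling (adjusted p = 0.0951), after thinning to equal depth (0.0575) and without a variance trend (0.105). Without knockout replicate 3, 3 genes of this list were higher and 4 lower. Khnyn, a nuclease partner of ZAP, had a log2 fold change of 0.07 (adjusted p = 0.851).

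The genes most alike in pattern to each called member over the 6 libraries were sought by Pearson correlation of log2 values among 4000 protein-coding genes that averaged 100 or more normalized reads. They were Rb1 (r = 0.995) and Akr1a1 (r = 0.995) for Dcp1a, and Gnptab (r = 0.997) and Zfp655 (r = 0.993) for Dcp1b. For Xrn1 they were Trpm2 (r = 0.999) and Trim11 (r = 0.997), for Zc3hav1 Phc3 (r = 0.999) and Tada1 (r = 0.999), and for Fxr1 Lmna (r = 0.997) and Dstyk (r = 0.995). These values describe only 6 libraries of 2 genotypes and have no test. A correlation takes no account of the size of a change, which could be larger or smaller than in the member. Phc3, for example, had 2417 ± 114 normalized reads in the knockout and 295 ± 16.6 in WT, and Gnptab 263 ± 23.0 and 367 ± 9.72. High correlations were common, since 651 genes, Zc3hav1 itself among them, reached 0.95 with Zc3hav1 and 141 with Dcp1a.

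**Figure D5:**
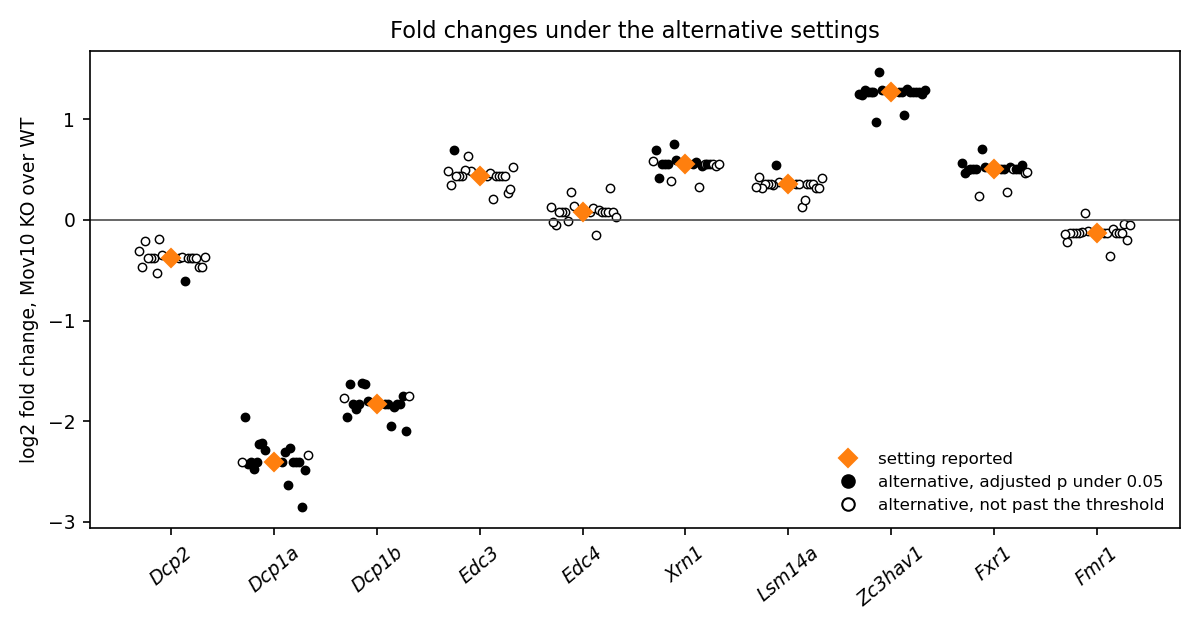
Log2 fold change, Mov10 KO over WT, of each gene in the setting reported (orange diamond) and under each alternative (circles, filled where the adjusted p is under 0.05). Zc3hav1 is filled in 19 of 19 alternatives, Dcp1a in 17 of 19, Dcp1b in 16 of 18, Fxr1 in 14 of 19 and Xrn1 in 12 of 19.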

How the data were processed

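The deposited signal values are, per the file headers and values, each gene's reads scaled by the authors with a single size factor for every library. Whole reads were recovered (within 0.05) in 99.976% of 107192 values above 0, on which edgeR called 3213 genes, and 5 genes whose values did not were left out of all fits. The log2 fold changes, p-values and adjusted p-values deposited by the authors come from a test not given in the sources used here. Among the 10 genes, 5 had in the authors' deposited table an adjusted p under 0.05, with a log2 fold change of -2.09 for Dcp1a and -1.64 for Dcp1b. The other deposited column used, gene length, is per the file headers. Libraries held fragments of 24 to 36 nt per the labels' protocols, and the build was GRCm39 per the submitters' processing notes.

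Values of genes averaging 1 or more normalized reads were put on the log2(value + 1) scale and fitted by genotype alone with limma 3.58.1 (R 4.3.3), using a variance trend, and p-values were adjusted (Benjamini-Hochberg) over all of them. The fold of a gene is the ratio of group means of normalized reads. Alternatives included edgeR 4.0.16 and DESeq2 1.42.0 on recovered reads, other scalings and filters, thinning to equal depth, a weight per genotype, a replicate block and each library left out. The limma and edgeR fits were tested on simulated data. These gave both genotypes the same spread beyond counting noise, unlike the libraries here. Ratios were compared by exact permutation (scipy 1.17.1), and figures drawn with matplotlib 3.10.9. Members, lists, tests and alternatives were chosen with earlier results of these data known. Named genes are all members, Mov10, and the 4 of each list with the smallest p. Patl1, Dcps, Lsm1, Lsm2, Lsm4, Lsm6, Lsm7, G3bp1, Cyfip2, Khnyn and the cell type markers named above were named after their values were seen. A floor of 3 reads accounts for counting error alone, since no molecular identifiers mark the reads.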

Additional observations from a re-analysis of the deposited data

How the results depend on the processing

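The number of genes called was 3628 and ranged from 1239 to 4585 with a library left out, with the 3 lowest counts, 1449, 1284 and 1239, without WT replicates 1, 2 and 3. Of the 10 decapping and P-body genes, 5 were called, and 1 to 6 with each library left out; 3 were called after cyclic loess and 3 without a variance trend, where Xrn1 and Fxr1 did not pass. Zc3hav1 passed in all 19 alternatives. The directions of Dcp1a, Dcp1b, Dcp2, Edc3, Xrn1, Lsm14a, Zc3hav1 and Fxr1 held in every alternative run for them; Dcp1b was not tested at a mean of at least 50. Fmr1 and Edc4 turned in sign without passing the test, Fmr1 to a log2 fold change of 0.0675 with upper-quartile scaling, and Edc4 to -0.15 with library totals, -0.0089 after cyclic loess, and -0.0495 and -0.02 without knockout replicates 1 and 3, its range with a library left out being -0.0495 to 0.321. The decapping partner list had 4 calls, 2 with upper-quartile scaling, 1 without a variance trend and 0 to 5 with a library left out. The exosome and Ski list had 2 calls, 4 with upper-quartile scaling and 2 to 4 with a library left out. The list of FMRP and ZAP partners had 4 calls, 2 without a variance trend and 3 to 7 with a library left out. Upper-quartile scaling moved the median log2 fold change of all genes by 0.18 and library totals by -0.21, and the genome-wide calls were 2250 higher and 1325 lower, and 1279 higher and 2877 lower, against 1757 higher and 1871 lower with the authors' scaling. With the replicate number as a block, 5 members were again called (3245 genes in all), and of the named partner genes Exosc5 alone changed its call (adjusted p = 0.0445). Deviations of same-numbered libraries correlated at -0.04, 0.01 and -0.03 over 4056 genes. No pairing by replicate number was thus seen, though so few libraries, noisier in the knockout, cannot exclude it. The share of reads on all 10 genes was 0.0164 percentage points higher in the knockout, and 0.0115 to 0.0198 with a library left out. At 7 to 23 reads per knockout library, the levels of the Dcp1 genes are imprecise.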
